A study of Mus musculus with 9 samples.

Results

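In CD4+CD8+ double-positive (DP) thymocytes, 10078 sites bound by the cohesin subunit Rad21 were called in no other cell type profiled for Rad21 and carried no CTCF peak of the B lineage. They made up 22.2% of the 45491 merged Rad21 sites on chromosomes 1 to 19 (10078 of 45491, exact 95% interval 21.8 to 22.5). The sites were found by merging Rad21 peaks of pre-B cells, CD4-CD8- double-negative (DN) thymocytes and DP thymocytes that shared at least 1 bp. Merged sites with a DP peak only were kept, and those touching a CTCF peak of pre-B cells or of IL7-cultured pro-B cells were left out. The sites were thus selected on the peak calls of these 5 lists, and DP-only calling and the lack of B-lineage CTCF are given as a description, without a test. Such sites were 65.9% of all 15297 DP-only sites and 28.0% of the 35982 DP peaks on these chromosomes, where 33.6% of merged sites were DP only and 22.2% were DP only without B-lineage CTCF.

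The study asked how far cohesin and CTCF binding in developing lymphocytes depends on lineage and stage. All mice were C57BL/6 and lacked RAG1, so that none of the cells could rearrange their own antigen receptor genes. DP thymocytes came from 4- to 8-week-old Rag1-/- mice with a rearranged TCRb transgene, and DN thymocytes from Rag1-/- mice of those ages without it. Pre-B cells came from RAG-/- mice with a rearranged IgM transgene, and pro-B cells from RAG1-/- mice, the latter grown with IL7 for 7 days; donors of both were 6 to 14 weeks old. Stage and TCRb transgene cannot be told apart between DN and DP, and CTCF in thymocytes was not analysed here. Each antibody and cell type had 1 library, so the intervals below cover counting error only and say nothing about the spread between animals.

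Cohesin is a ring-shaped complex that holds chromatin loops, and Rad21 is the subunit that closes the ring. At many sites the ring is halted by CTCF, a zinc finger protein that binds a long sequence motif, and these sites tend to be shared between cell types. Cohesin is also loaded and retained at active promoters and enhancers without CTCF, and such binding tends to follow the transcription factors of the cell. DP thymocytes express both coreceptors, Cd4 and Cd8, and are the stage at which the TCRα locus is normally assembled and selection begins.

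The number of these sites depended on the length of the lists. The DP list held 36743 peaks down to a score of 57.72, the pre-B list 30488 down to 59.74 and the DN list 9701 down to 86.45, where the score is the value the authors' peak caller MACS derived from each peak's p-value. The full lists gave 10078 of 45491 merged sites. With the 3 lists limited to their 9701 highest-scoring peaks, 726 of 15018 merged sites were DP only without B-lineage CTCF. With scores below 100 left out of all lists, 5939 of 31837 were. Of these, 583 and 4676 overlapped the 10078 sites, and the other 143 and 1263 met the rule only once weaker peaks had been dropped from the other lists. A site absent from the DN or pre-B list was not called there and may still have been bound below that list's limit. The sites just inside the rule lay as close as 1 bp to a CTCF peak, and 833 of them (8.27%) lay within 500 bp of one. Just outside it, the smallest overlap of a DP-only site with a CTCF peak was 2 bp, and 114 DP-only sites overlapped CTCF by at most 100 bp. The median site lay 6582 bp from the nearest B-lineage CTCF peak.

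Peak lists measure binding and not RNA, so the cell labels could be checked only by peaks at marker genes. In the bodies of Cd8b1 and Cd8a, which encode the Cd8 coreceptor, or within 10 kb of them, the DP list had 11 and 9 peaks, all of them among the sites described here, and the DN and pre-B lists had 0. Around Pax5, the B-lineage commitment factor, the pre-B list had 11 peaks and the DN and DP lists 0. The macrophage receptor gene Csf1r had 0 peaks in any Rad21 list, whereas Itgam, another myeloid gene, had 5 in the pre-B list and 6 in the DP list, 2 of them among these sites. The other DP markers, Cd4, Rag1, Cd3e and Themis, had 5 to 7 DP peaks and at most 2 in either other list. Cd79a and Ebf1, markers of the B lineage, had 3 and 5 DP peaks, of which 1, at Ebf1, was a member, and the myeloid gene Lyz2 and the erythroid gene Klf1 had 0 and 1 DP peaks.

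Central sequences are shown for 4 high-scoring sites outside promoters and exons, to set them against a site bound in every cell type. They are the site with the highest DP score of all, a site on the downstream side of the transcription factor gene Myb, and the highest-scoring sites within Runx1 and Bcl11b. Each run is 300 bases of the plus strand of mm9 at chr12:108362099-108362398, chr10:20812749-20813048, chr16:92741700-92741999 and chr12:109202759-109203058. Capitals mark the ETS string CAGGAAG, the E-box strings CAGCTG and CACCTG, and the RUNX string TGTGGT on either strand.
Strongest site: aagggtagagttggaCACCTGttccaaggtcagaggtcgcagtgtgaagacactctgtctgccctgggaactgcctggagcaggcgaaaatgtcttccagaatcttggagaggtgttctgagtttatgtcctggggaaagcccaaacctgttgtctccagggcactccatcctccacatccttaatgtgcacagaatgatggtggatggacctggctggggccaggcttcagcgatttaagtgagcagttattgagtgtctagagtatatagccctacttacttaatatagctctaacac
Myb side: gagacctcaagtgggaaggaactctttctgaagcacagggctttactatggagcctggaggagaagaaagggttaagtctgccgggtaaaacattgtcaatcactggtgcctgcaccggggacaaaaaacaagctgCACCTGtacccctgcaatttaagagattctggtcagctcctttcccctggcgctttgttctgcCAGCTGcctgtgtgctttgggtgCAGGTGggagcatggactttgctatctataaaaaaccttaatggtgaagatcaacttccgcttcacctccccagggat
Runx1 intron: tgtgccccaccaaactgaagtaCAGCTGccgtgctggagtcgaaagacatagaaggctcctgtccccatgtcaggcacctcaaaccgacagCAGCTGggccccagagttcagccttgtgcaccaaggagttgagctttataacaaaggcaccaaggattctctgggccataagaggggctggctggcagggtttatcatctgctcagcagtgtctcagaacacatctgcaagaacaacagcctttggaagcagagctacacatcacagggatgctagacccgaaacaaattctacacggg
Bcl11b intron: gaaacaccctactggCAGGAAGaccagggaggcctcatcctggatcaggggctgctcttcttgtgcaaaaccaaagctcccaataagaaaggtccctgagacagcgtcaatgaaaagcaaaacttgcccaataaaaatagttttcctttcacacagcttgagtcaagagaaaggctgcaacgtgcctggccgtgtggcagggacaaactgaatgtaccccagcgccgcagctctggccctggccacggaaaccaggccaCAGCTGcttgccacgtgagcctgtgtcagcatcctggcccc

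The strongest site held 1 CACCTG, the Myb-side site 1 CAGCTG and 2 CACCTG, the Runx1 site 2 CAGCTG, and the Bcl11b site 1 CAGCTG and 1 ETS string. None of them held RUNX letters in this window. The same windows of the highest sites at Lef1, Cd8b1 and Thy1, all at promoters and not printed, held 0 of the marked strings. The best match to a 12-base CTCF consensus, 1 of several CTCF motifs that the study considered, had 4 mismatches at the strongest site and in Runx1, and 3 at the Myb side and in Bcl11b. For comparison, the next run is the highest-scoring site called in all 3 Rad21 libraries that had a match with at most 2 mismatches, at chr4:128388681-128388980, with that match in capitals.
All 3 libraries: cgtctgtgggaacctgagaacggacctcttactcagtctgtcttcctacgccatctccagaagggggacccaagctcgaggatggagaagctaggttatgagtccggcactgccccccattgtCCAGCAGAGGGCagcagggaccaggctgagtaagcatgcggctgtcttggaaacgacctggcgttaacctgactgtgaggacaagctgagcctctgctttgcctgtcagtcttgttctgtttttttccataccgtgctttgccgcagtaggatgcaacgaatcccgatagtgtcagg

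The study derived this consensus from CTCF peaks of pre-B and pro-B cells, and the members were chosen for lacking B-lineage CTCF peaks. Contrasts with classes that have such peaks are therefore tied to the rule and given as a description. Over all members the consensus was less common than at sites with CTCF peaks. It was found, with at most 2 mismatches on either strand, in the central 300 bp of 591 of the 10078 sites (5.86%, 5.41 to 6.34), against 3.42% of windows of the same length 2 kb away. DP-only sites that did overlap B-lineage CTCF held it in 24.9%, a difference of -19.0 percentage points (Newcombe 95% interval -20.3 to -17.8). Sites called in all 3 libraries held it in 51.8%, a difference of -46.0 points (-47.1 to -44.8). Only 9 of those 8546 shared sites (0.105%) lacked B-lineage CTCF. Pre-B-only sites without B-lineage CTCF, called the pre-B class here, held the consensus in 7.09%. The interval of the difference, -2.76 to 0.103 points, included 0. Away from promoters the members held it in 5.67% and the pre-B class in 7.64%, and the interval of -3.75 to -0.462 points did not. CTCF for the pre-B class came from its own lineage, whereas no thymocyte CTCF entered the rule for the members, so the classes are not matched. With the 3 Rad21 lists limited to 9701 peaks each, the shares were 6.20% for the 726 sites and 32.9% for DP-only sites at CTCF.

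Most of these sites were away from promoters. Of the 10078 sites, 2424 (24.1%, 23.2 to 24.9) lay within 1 kb of an annotated gene start, 3783 (37.5%) in introns, 3445 (34.2%) between genes and 426 (4.23%) in exons. The nearest gene start was 10 to 50 kb away for 3193 sites and more than 100 kb away for 1340. Sites called in all 3 libraries were at promoters less often (8.79%), by 15.3 points (14.2 to 16.3). Pre-B-only sites without B-lineage CTCF were at promoters in 18.7%, so that the DP sites exceeded them by 5.40 points (3.11 to 7.54). DP-only sites at B-lineage CTCF were at promoters more often (34.7%), a difference of -10.6 points (-12.2 to -9.08) for the members with the full lists. With scores below 100 left out the difference was -3.48 points (-5.47 to -1.51). With lists of equal length no difference was detectable (30.7% of 726 sites against 29.6% of 1600, a difference of 1.09 points, -2.88 to 5.18).

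**Figure D1:**
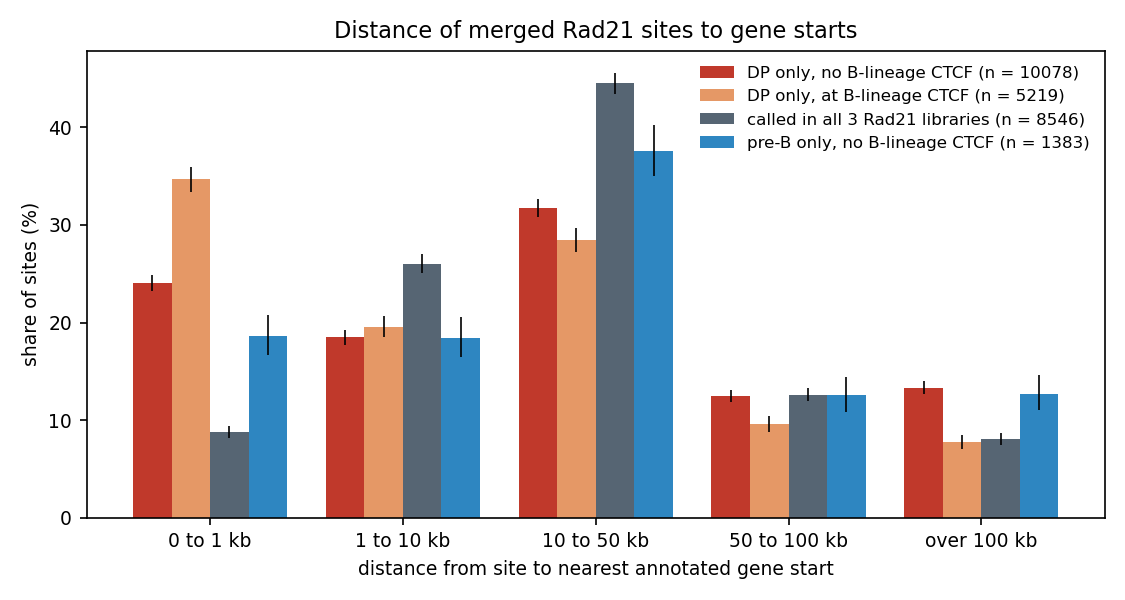
Share of merged Rad21 sites (vertical axis, %) by distance to the nearest annotated gene start (horizontal axis), for 4 classes of sites, with exact 95% intervals for counting error as lines. DP-only sites without B-lineage CTCF (dark red) have 24.1% within 1 kb of a start, between DP-only sites at CTCF (34.7%) and sites called in all 3 libraries (8.79%).

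The sites gathered along the chromosomes. When sites with gaps of at most 10 kb were joined, 2515 of the 10078 (25.0%, 24.1 to 25.8) fell into 622 clusters of 3 or more, and 917 (9.10%) into 134 clusters of 5 or more. DP-only sites at B-lineage CTCF reached 3.01% in clusters of 3 or more, sites in all 3 libraries 2.69% and pre-B-only sites without CTCF 3.62%, and the members exceeded them by 22.0 points (20.97 to 22.9), 22.3 points (21.4 to 23.2) and 21.3 points (19.9 to 22.6). Peaks that shared no base stayed separate, so a wide bound region called as several peaks counts as several sites. How much of the clustered share this makes up was not tested. That share also depends on how many sites are counted. With the members reduced to their 5219 highest scores, as many as DP-only sites at CTCF, it was 17.2%, and with lists of equal length it was 3.72% against 1.69%. Clustering among the members rose with score, so their highest scores do not stand for all of them. No match in number was made for the 1383 pre-B-only sites. Clusters were mostly away from promoters, with 17.6% of clustered sites within 1 kb of a gene start, and 179 of the 622 overlapped no protein-coding gene.

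**Figure D2:**
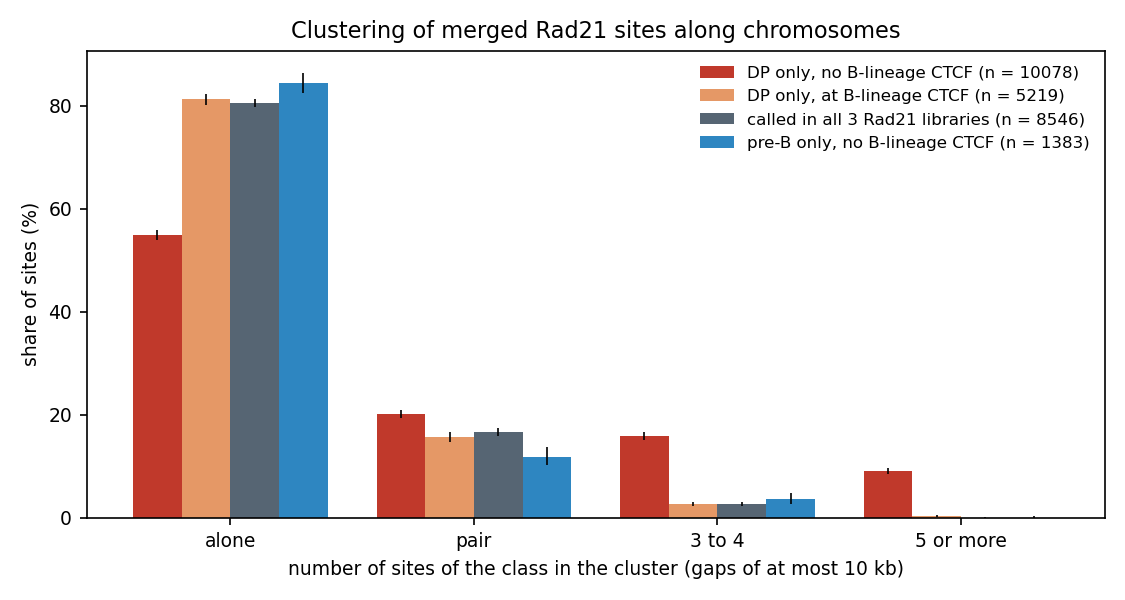
Share of sites of each class (vertical axis, %) that stood alone, in a pair, or with more sites of the same class when gaps of at most 10 kb were joined (horizontal axis), with exact 95% intervals as lines. DP-only sites without B-lineage CTCF (dark red) have 9.10% in clusters of 5 or more, a bin in which the other classes have at most 0.383%.

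Of the 5 largest clusters, 3 overlapped protein-coding genes and 2 did not. The largest had 26 sites over 69808 bp (chr6:71257447-71327254) and ran from the end of Smyd1, a muscle gene, through Cd8b1 and Cd8a. In it the DP list had 28 peaks, the DN and pre-B Rad21 lists 0, the pre-B CTCF list 0 and the IL7-cultured pro-B CTCF list 2. Its highest peak, with a DP score of 1280, covered the Cd8b1 start. Some of its sites almost touched, as where 1 ended 0.659 kb and the next began 0.689 kb past the Cd8a start. The second cluster had 18 sites over the distal part of Clec16a and just past its end (chr16:10663560-10749789), ending 35840 bp from the start of Socs1, a suppressor of cytokine signalling, and its highest score was 708.1. In that interval the DN list had 2 peaks and the pre-B Rad21 and both CTCF lists 3 each. The third had 17 sites at Tcf7 (chr11:52079047-52135537), which encodes TCF-1, a factor required early in T-cell development, with a highest score of 531.8. In that interval the DN, pre-B Rad21 and pre-B CTCF lists had 1 peak each and the IL7-cultured pro-B CTCF list 3.

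The other 2 of these clusters lay between protein-coding genes on chromosome 12. One, between Vrk1 and 3110018I06Rik, had 15 sites (chr12:108358746-108409721) and contained the strongest site of all, whose central sequence is printed above. It lay 317121 bp from the nearest protein-coding start, 3110018I06Rik. The other, between 3110018I06Rik and Bcl11b, had 15 sites (chr12:108986809-109038877) and ended 202935 bp from the start of Bcl11b, the factor that commits cells to the T lineage. Neither interval held any peak of the other 4 lists. Bcl11b itself held a further 17 sites in its body or within 10 kb.

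**Figure D3:**
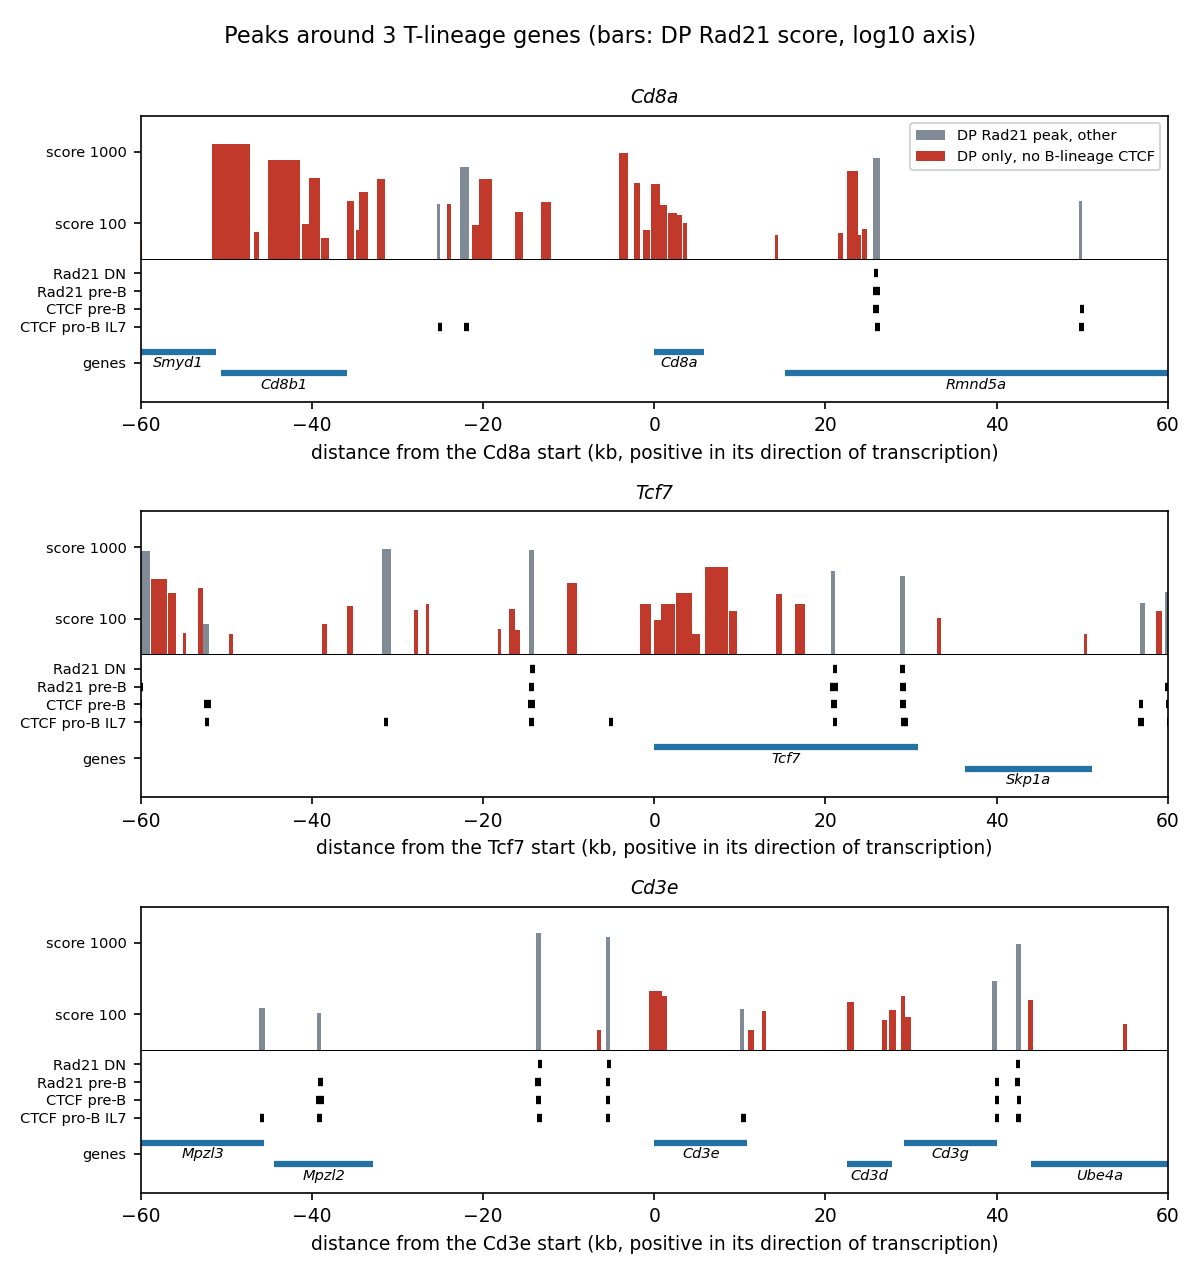
Peaks within 60 kb of the starts of Cd8a, Tcf7 and Cd3e (horizontal axis, kb from the gene start in the direction of transcription). Bars give the DP Rad21 score on a log10 axis, dark red for DP-only sites without B-lineage CTCF and grey for other DP peaks; black marks give peaks of the other 4 lists and blue lines gene bodies. Dark red bars fill the Cd8b1 to Cd8a interval, while the black marks lie mostly under grey bars.

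Within the DP list these sites ranked low. Their median percentile by score was 30.1 (29.4 to 30.8), close to that of DP-only sites at B-lineage CTCF (34.3) and far below that of sites called in all 3 libraries (84.8). The score decides whether a site is called at all, so rank is tied to the rule and is given without a test. The members were 52.1% of DP sites in the lowest score decile and 1.96% in the highest, where 71 of them stood. Among the members themselves, the share in clusters of 3 or more went from 19.6% in the lowest decile to 62.0% in the highest, whereas the promoter share stayed between 20.8% and 27.2%.

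**Figure D4:**
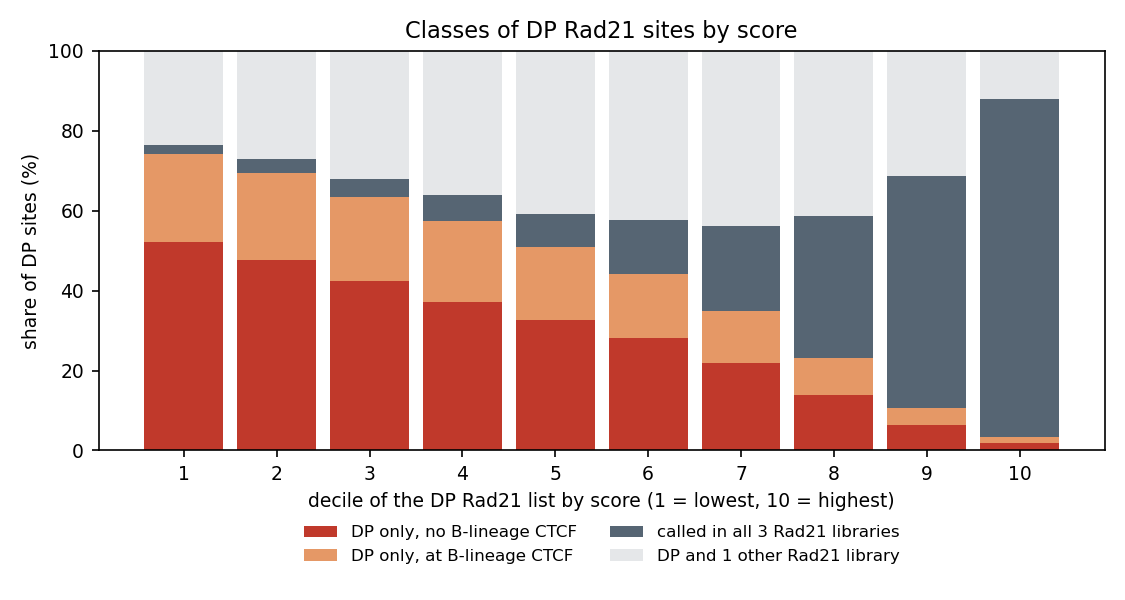
Classes of DP Rad21 sites (vertical axis, % of DP sites) in each decile of the DP list ordered by score (horizontal axis, 1 lowest, 10 highest). DP-only sites without B-lineage CTCF (dark red) go from 52.1% of the lowest decile to 1.96% of the highest, and sites called in all 3 libraries (dark grey) from 2.31% to 84.7%.

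The 10 highest scores ran from 1328 to 2271, and only 3 of these sites were at promoters. The first, with a score of 2271, was the site on chromosome 12 described above, 3502 bp from the nearest DN Rad21 peak and 873757 bp from the nearest pre-B one. The next was in an intron of Ptpn14, a phosphatase gene (2007). The third, 3428 bp wide, covered the promoter of Lef1, a partner of TCF-1 in thymocytes (1835). They were followed by introns of Fstl4 (1651) and BC065403 (1632), by another site of the chromosome 12 cluster at the start of Gm16084 (1599) and by the Myb-side site 67078 bp from the Myb start (1596). The last 3 were intergenic sites on chromosome 17 (1491) and chromosome 15 (1389) and a promoter site shared by Gm5069 and Itpkb, a kinase gene needed for thymocyte selection (1328). The pre-B Rad21 list had no peak within 5 kb of any of the 10, and the nearest, 5927 bp away, was at the Fstl4 site. CTCF peaks were closer at some: the Gm5069 and Itpkb site lay 775 bp from a pre-B CTCF peak, and the Lef1 site 2405 bp from one of IL7-cultured pro-B cells.

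Genes on 3 T-lineage lists often had such a site. The lists were drawn up with earlier results of these data known, so the counts are a description. Of 86 genes in 3 lists, 74 (86.0%) had a member in the gene body or within 10 kb, against 23.3% of the 25568 annotated genes. DP-only sites at B-lineage CTCF were also near more of these genes (47 of 86, 54.7%, against 20.1% of all genes), as were sites in all 3 libraries (52 of 86, 60.5%, against 28.2%). The genes on the lists were longer than most, with a median of 30529 bp against 12976 bp. Measured within 10 kb of the gene start, whatever the length, 64 of 86 (74.4%) had a member, where 17% of all genes did. At the promoter itself 35 of 86 (40.7%) had one, where 10.1% of all genes did. With lists of equal length the count was 31 of 86 and the value over all genes 2.40%.

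Among T-lineage transcription factors, 22 of 28 had a member. Lef1 had 9 (highest score 1835). Runx1, which activates many thymocyte enhancers, had 18, none of them at its start, and the highest (1268) lay in an intron 84125 bp downstream of it. Bcl11b had 17, the highest of them (1032) in an intron 38375 bp downstream of the start. Ets1, the factor whose family string is marked above, had 16, with a highest score of 789.7. Tcf7 had 11, with a highest score of 531.8. Tox, needed for selection of CD4 cells, had 4 (504.8), and Gata3, a regulator of early T-cell and CD4 fate, had 7 (462.1). The highest Tox site lay 116 bp from a DN Rad21 peak and 98 bp from a pre-B CTCF peak, so it was near the edge of the rule. The factors without a member were Zbtb7b, Id3, Tcf3, Egr3, Hes1 and Notch3.

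Of 30 genes of the TCR complex, coreceptors and T-cell signalling, 29 had a member and Vav1 did not. Cd8b1 had 11 (highest score 1280) and Cd8a 9, the highest of them (965.5) intergenic, 3053 bp upstream of the Cd8a start. The surface protein gene Thy1 had 5, with a highest score of 1079 at its promoter. Themis, required for positive selection, had 3, and its highest, at the promoter, scored 994.8 and lay 61515 bp from the nearest pre-B Rad21 peak. Sla, an adaptor that lowers TCR levels in DP cells, had 10 (854.8). Promoter sites were also the highest at Cd247 (572.1), the TCR ζ chain, and at Lat (567.7), the adaptor of the TCR signal. Cd3g, Cd3d and Cd3e had 6, 6 and 5 sites with lower scores of at most 207.8, and since these genes adjoin, sites are counted for more than 1 of them.

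Of 28 genes listed for recombination, survival and migration of thymocytes, 23 had a member. The list was wider than its name, since it held Rmnd5a, a neighbour of Cd8a. Ccr9, a chemokine receptor of thymocytes, had 9 (772.6), although the annotated Ccr9 gene starts 88412 bp from the highest. Bcl2l1, whose product Bcl-xL keeps DP cells alive, had 7 (584.5), and its highest site lay 6 bp from a pre-B Rad21 peak, again near the edge of the rule. Rmnd5a had 6 (531.7). Rag1 had 5, with 493.9 at its promoter, and Dntt, which adds bases at V(D)J joints, had 5 (429.9). Endou had 4 (289.4), Mcl1 1 (232.8) and Bcl2 3 (226.9). S1pr1, Cd69, Ccr7, Il7r and H2-K1 had none.

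Of the lists outside the T lineage, those for other cell types gave lower counts. Of 25 B-lineage genes 8 had a member (32%, beside 23.3% of all genes), with Rag1, which is on both lists, the highest and the other 7 at scores of at most 111.3. Myeloid genes had 2 of 13, erythroid genes 1 of 8 and genes of thymic stroma 1 of 10. Of 9 genes for cohesin and its loading factors, 6 had a member (66.7%, beside 23.3% of all genes), and 4 had one at the promoter (44.4%, beside 10.1%). The genes of this list were long, with a median of 74056 bp, and the highest sites of 5 of the 6 (Pds5b, Smc3, Ctcf, Stag1 and Nipbl) lay 116 to 731 bp from a peak of another list, near the edge of the rule. The pre-B class, pre-B-only sites without B-lineage CTCF, was near 8 of 25 B-lineage genes and 18 of 86 T-lineage genes, against 4.77% of all genes.

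Over all DP peaks on these chromosomes 28.0% were members, and the share differed among the antigen receptor loci. The TCRα/δ locus held 72 (40.2% of its 179 DP peaks) and the TCRβ locus 12 of 29 (41.4%). TCRγ held 2 of 7 (28.6%), Igh 12 of 82 (14.6%), Igκ 0 of 4, and Igλ had no DP peak. Of the TCRβ sites, 11 belonged to a cluster over the D, J and C segments (chr6:41476971-41508824) with a highest score of 1161, and 8 of its sites lay within 1 kb of an annotated start. The DP mice carried a rearranged TCRb transgene, and reads from transgene copies and from the locus itself cannot be told apart there. In TCRα/δ, 11 sites formed a cluster over the J segments (chr14:54766005-54802317), with a highest score of 292.8.

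Some short strings of lymphoid transcription factors were more common in the sites than beside them, and others less. In the 7654 members away from promoters, CAGGAAG (ETS) was found in 27.1% of central 300 bp windows against 11.97% of windows 2 kb away. The E-box string CAGCTG, a class bound by E proteins, was in 29.0% against 14.7%, and CACCTG in 36.2% against 20.8%. TGTGGT (RUNX) was in 31.5% against 23.3% and CTTTGA (TCF/LEF) in 22.7% against 19.8%. Over all members the TCF/LEF difference was 0.278 points, and its interval of -0.824 to 1.38 included 0. Each string was searched on both strands and counted on its own, so that strings may share bases. The GC content of these windows was higher than 2 kb away (median 50% against 45.7%), and its part in the string counts was not tested. Other strings went the other way. The string searched for GATA factors, AGATAA, was in 12.8% against 16.2%, the Ikaros string TGGGAA in 21.9% against 26.5%, the ROR string AGGTCA in 15.2% against 17.9%, and the CCAAT box, bound by NF-Y, in 23.8% against 34.3%.

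Set against the pre-B class, also away from promoters (1125 sites), the DP sites differed in some strings and not detectably in others. The classes are not matched in their CTCF filter, as stated above. ETS letters were more common by 6.91 points (4.27 to 9.36), CACCTG by 6.26 points (3.32 to 9.08), TCF/LEF letters by 5.27 points (2.77 to 7.58) and AGATAA by 3.22 points (1.22 to 4.98). CAGCTG was less common, with a signed difference of -5.54 points (-8.54 to -2.63). AGGTCA was less common as well, with a signed difference of -6.79 points (-9.42 to -4.33). For RUNX letters the difference was 1.38 points, and its interval of -1.55 to 4.19 included 0. Median GC content was 50% in the DP sites and 50.7% in the pre-B sites. With lists of equal length the pre-B class had 7 sites, too few for this comparison. Over all members, at promoters or not, 6 of the 12 strings (RUNX, ETS, both E-boxes, MYB and SP/KLF) were more common than 2 kb away, with an interval of the difference above 0, and with lists of equal length 4 were.

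Members at promoters had another composition. GGGCGG, the SP/KLF string of CpG-rich promoters, was in 52.5% of the 2424 promoter windows against 5.86% of windows 2 kb away, and 9.88% of windows away from promoters held it. The ETS string was in 13.7% of promoter windows against 11.3% of windows 2 kb away. TGTGGT went the other way, with 14.4% against 22.6%, as did CTTTGA, with 11.6% against 19.5%. Median GC content at promoter members was 62.7%, against 44.3% in their neighbouring windows.

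**Figure D5:**
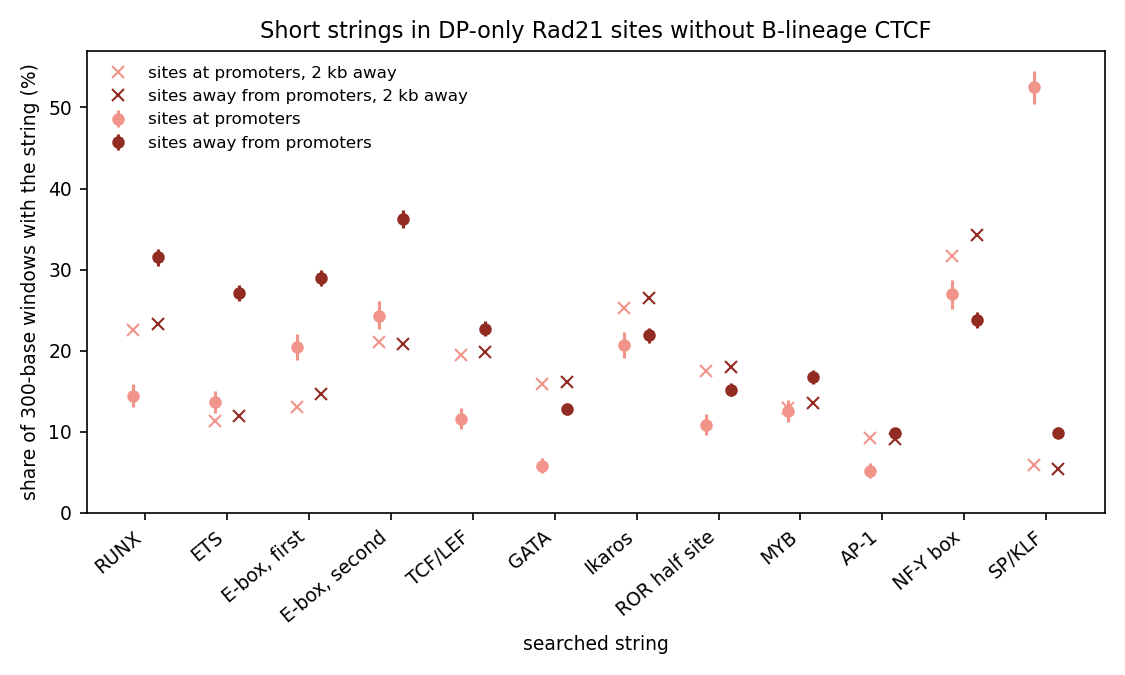
Share of 300-base windows (vertical axis, %) that hold each searched string (horizontal axis) at the centre of DP-only sites without B-lineage CTCF (points, with exact 95% intervals) and 2 kb away (crosses), for sites at promoters (light) and away from them (dark). Away from promoters the ETS and both E-box points stand above their crosses, at 27.1%, 29.0% and 36.2%, and at promoters the SP/KLF point stands highest at 52.5%.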

How the data were processed

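The authors removed duplicate reads, aligned the rest to mm9 with Bowtie (version 0.12.9 in the submitters' processing notes), keeping reads with up to 3 locations, which can place reads of repeated gene segments at several copies, called peaks in each library against its input with MACS 1.4.2. They deposited peak positions with a score. The read depth behind the lists is unknown. Scores from the deposited lists served for ranks within a list, and in 1 alternative the same limit of 100 was set on all lists, although scores of different libraries need not be comparable.

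From the 5 lists, peaks on chromosomes 1 to 19 were merged with 1 bp or more of overlap. Gene starts came from GENCODE vM1 on NCBIM37, the same assembly as mm9, leaving out small RNAs and pseudogenes. A promoter was within 1 kb of a start. A 12-base de novo consensus, 1 of several CTCF motifs that the study considered, and 12 short strings were searched in the central 300 bp. Shares carry exact Clopper-Pearson intervals and differences Newcombe intervals at 95%; sites of 1 library are not replicates, so no p-value was computed. Named sites were the 10 highest by DP score, up to 8 genes per T-lineage list by the score of their best site, and the 5 largest clusters. Sites, lists and strings were chosen with earlier results of these data known. On simulated data 985 of 985 planted sites and 1000 of 1000 planted consensus matches were found, and the exact and Newcombe intervals held the true value in 955 and 947 of 1000 draws. Python 3.11.15, numpy 2.4.6, scipy 1.17.1, pandas 2.3.3, pysam 0.24.0 and samtools 1.23.1 were used. Input libraries, DN-only sites and chromosome X were not part of the comparisons. Some genes that these rules select are not reported here.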

Additional observations from a re-analysis of the deposited data

Results flagged for a closer look

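Chromosome X lay outside the rule and was counted separately. It had 161 DP-only Rad21 sites without B-lineage CTCF among 752 DP sites (21.4%, 18.5 to 24.5), a signal outside the data compared above. On chromosomes 1 to 19 together the share was 28.3%. Their density was 0.966 per Mb, against 4.08 per Mb on chromosomes 1 to 19, and their highest score 849.1.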

How the results depend on the processing

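No paired analysis was possible because each condition had 1 library. In place of 10078 of 45491 merged sites, 5939 of 31837 met the rule with scores below 100 left out and 726 of 15018 with lists of equal length. Of these, 78.7% and 80.3% overlapped the 10078. Across these, the promoter share of 24.1% was 29.2% and 30.7%, and the clustered share of 25.0% was 17.2% and 3.72%. With lists of equal length the median rank was 26.8 and T-lineage genes with a site numbered 31 of 86. The consensus share of 5.86% was 7.19% with low scores left out. With no CTCF peak within 1 kb, the promoter share was 20.8% and the clustered share 22.5%. With the pre-B CTCF list only, promoters made 26.9%, clusters 26.5%, the consensus 8.07% and the median rank was 31.1. The promoter share was 20.9% within 500 bp, 27.6% within 2 kb, 21.9% for protein-coding genes, and 29.1% for any transcript start. The clustered share was 14.5% with gaps of at most 5 kb, 39.8% with 20 kb, and 17.2% for the 5219 highest scores. The consensus share was 0.397% with 1 mismatch, 38.6% with 3, and 9.66% over the whole peak. The other 18 values stayed within 1 interval of the main value or, for counts, within 1.5 times it. Any transcript start, the 5219 highest scores and distance from the gene start were chosen after seeing the data. Lists of equal length hold fewer DP and pre-B peaks, and the cause of the changes under this setting was not tested. Read depth is unknown, so a site not called in a list cannot be separated from one below its limit.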

Other observations

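Further clusters are described at genes chosen after their values were seen. A cluster of 13 sites (chr17:52012597-52051944) overlapped no protein-coding gene and began 39982 bp from the start of Satb1, a chromatin organiser of thymocytes, with a highest score of 454.7. Between Bcl6, a repressor of lymphocyte genes, and Lpp, 11 sites (chr16:24200008-24232211) reached 447.4. Clusters of 10 sites lay at Rhoh (272.5), Ikzf1 (313.1), Ets1 (379.5), Sla (854.8), Hpcal1 (482.6) and Wdr78 with Mier1 (841.7), and another ended 28137 bp from the start of Mns1 (1632). Among clusters of 9 sites, those at Atp10a and at Znrf1 with Ldhd reached 462.1 and 512.3, and a cluster 41658 bp from the start of Chd2 reached 178.7. Another of 9 sites overlapped no protein-coding gene and began 56245 bp from the start of Rasgrp1, which activates Ras after TCR signals, with a highest score of 719.5.

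By the number of members in the gene body or within 10 kb, Gm20388 came first with 73, over an annotated length of 4434882 bp. Clec16a followed with 21, Runx1 and Arid1b had 18, and Bcl11b, Znrf1 and Eif4e3 17.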
